A study of Mus musculus with 6 samples.

Results

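Translation initiation factor genes are the genes whose products bring the ribosome, the initiator tRNA and the mRNA together. They were taken by symbol, as the rows whose gene name begins with Eif and a factor number. Names of pseudogenes with -ps, the eIF2 kinases named Eif2ak and the Y-linked Eif2s3y were left out. The rule found 54 rows for 51 genes, among 49377 names in the deposited tables. Eif2s2, Eif3e and Eif4enif1 have 2 rows each, which were summed. Of the 51 genes, 48 reached 5 FPKM (fragments per kilobase of transcript, scaled to the size of the library) in a pool and entered the comparisons. The other 3 stayed under it. Eif2c5, an older Argonaute-type symbol that the rule also catches and that GENCODE annotates as a lincRNA, was listed at 0 in both treated pools and at 0.0377 FPKM in untreated cells. Eif4e1b had 0.188 FPKM with VD3 and was listed at 0 in the other pools. Eif5a2 is described with its relative Eif5a.

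RNA was sequenced from embryonic stem cells of C57BL/6J mice, a cell type taken from the blastocyst that can form every tissue of the embryo. Cells of every group carried Mll1fl/fl, the floxed alleles of the histone methyltransferase gene, and Cre-ER TM, and the labels name no agent that activates the Cre. Cells of the VD3 plus MM-401 group received 1 µM 1α,25-dihydroxyvitamin D3 (VD3, the active vitamin D hormone) and 100 µM MM-401, an inhibitor of MLL1, for 5 days. Cells of the VD3 group received the VD3 alone for 5 days, and the last group was untreated, with no time given. The labels list 2 libraries per group, named as biological duplicates. Cells were kept with leukemia inhibitory factor on fibroblast feeder cells in medium with 15% fetal calf serum or 20% serum replacement. Treatments were in serum medium, and which of the media the untreated cells had is not given. No group received MM-401 alone.

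The deposited tables hold 1 pooled value per group, so the differences below have no check against replicates and no p-value is given. The error given with a value is the authors' confidence interval of that pool, whose level is not given. Total estimated counts were 73499639 with VD3 plus MM-401, 73636342 with VD3 and 62284598 in untreated cells. The initiation factor genes took 1.76%, 1.70% and 1.66% of them, in that order of pools. All 9 listed embryonic stem cell markers were above 5 FPKM in every pool, with a summed level of 5683, 4498 and 2928 FPKM. Pou5f1 (1832, 2053 and 1114 FPKM) and Dppa5a (2088, 959 and 628) gave most of this sum. Klf4 (63.0, 62.6 and 76.2) went the other way, and Zfp42 (30.9, 26.7 and 26.4) was almost level with VD3. Of 9 fibroblast markers 2, 3 and 3 were above 1 FPKM, with a summed level of 14.8, 22.6 and 15.5 FPKM, and Lum was listed at 0 in every pool. The part of either marker list in the differences below was not tested. In bulk samples, fewer cells of a type and less RNA per cell cannot be told apart.

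Initiation begins when eIF2, bound to GTP, delivers the initiator tRNA to the small ribosomal subunit together with eIF1, eIF1A, eIF3 and eIF5. The cap-binding complex eIF4F (eIF4E, the helicase eIF4A and the scaffold eIF4G) recruits this complex to the mRNA, which it scans for a start codon, and eIF5B then helps the large subunit to join. The exchange factor eIF2B reloads eIF2 with GTP and is blocked when stress kinases phosphorylate eIF2. Pluripotent cells are known for a low rate of protein synthesis for their rate of growth, and the eIF4E-binding proteins, which mTOR inactivates, are among its regulators.

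The genes were highly expressed in every pool but at very different levels. The median of the 48 genes was 186 FPKM with VD3 plus MM-401, 187 with VD3 and 146 in untreated cells. In untreated cells this median lay above 91.5% of all genes that reached 5 FPKM in a pool. Eif4g2, the scaffold DAP5 of cap-independent initiation, was the highest of these genes in untreated cells, at 1416, 1006 and 1627 FPKM in the VD3 plus MM-401, VD3 and untreated pools. Eif5a was the highest in both treated pools, at 1489.8, 1516 and 922 FPKM, and its interval in untreated cells (575 to 1268) overlapped that of Eif4g2 (392 to 2863). At the low end, Eif2s3x, a gamma subunit gene of eIF2, had 9.54, 6.33 and 8.12 FPKM and Eif3j2 had 12.1, 10.9 and 16.5 FPKM. The subunits of eIF3, which form a complex, ranged over 119-fold, 109-fold and 49.2-fold from Eif3j2 to the highest subunit gene. Without Eif3j2, whose value is uncertain, they ranged over 19.7-fold, 23.1-fold and 17.0-fold, with Eif3m then the lowest. In untreated cells the highest was Eif3e, whose value is uncertain too. The 5 subunits of eIF2B ranged over 2.36-fold, 2.80-fold and 1.88-fold.

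**Figure D1:**
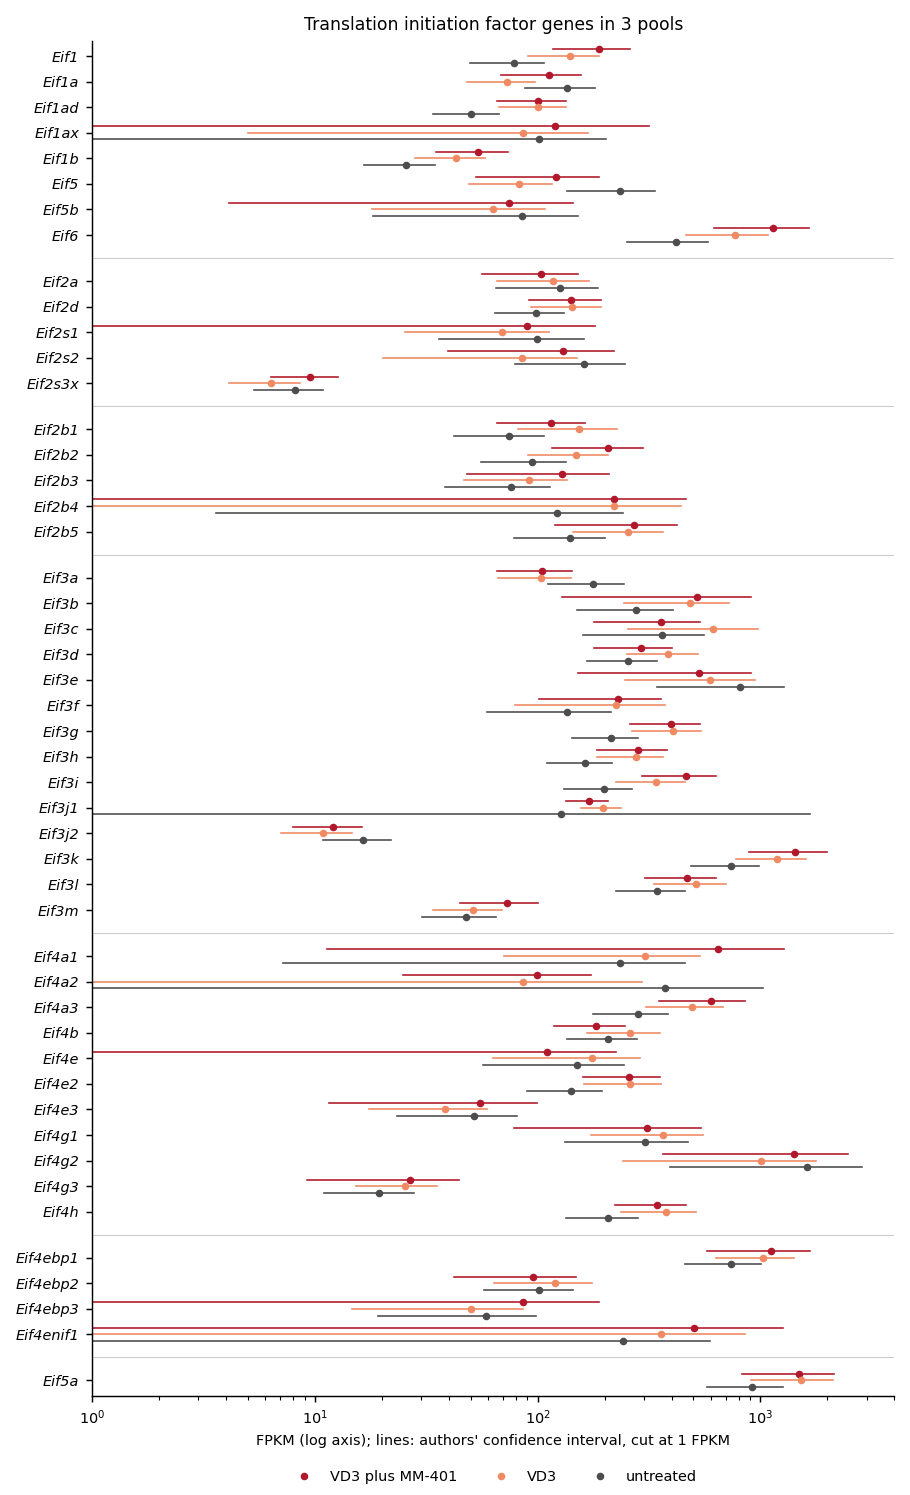
FPKM on a log axis of the 48 initiation factor genes above 5 FPKM, grouped by role, in the VD3 plus MM-401, VD3 and untreated pools. Points are the deposited values and lines the authors' confidence intervals, cut at 1 FPKM. The levels run from Eif2s3x, under 10 FPKM in every pool, to Eif5a and Eif4g2, the highest, and for most genes the lines of the 3 pools overlap.

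VD3 against untreated asks which transcripts differ after 5 days of the hormone. Eif4a2, a helicase subunit, and Eif5, the GTPase activator of eIF2, were lower with VD3, and Eif2b1, a subunit of the exchange factor, was higher. Most other genes lay modestly above untreated, as did most genes of the whole table. A gene was called where log2 of FPKM + 1 differed by at least 1 (2-fold), and each difference below is on this scale unless a sentence names another. By this rule 1 of the 48 genes was higher, against 3.54% of all 10911 genes tested, and 2 were lower, against 8.70% of all. With the further demand that the authors' intervals do not overlap, 0 were higher (0.926% of all genes) and Eif5 alone was lower (4.22% of all). By intervals alone, with no demand on size, Eif1ad was higher (0.990% of all genes) and Eif5 lower (4.34% of all). Centred on the median gene, 0 were called higher and 6 lower, and relative to the total count 0 higher and 5 lower. The share of all genes called on these other scales was not worked out, so these counts have no background. The median difference was 0.51 for the initiation factor genes and 0.36 for all genes. Of the 48, 33 were above untreated and 15 below, and 27 lay above the median gene. The share above untreated was near the 71.7% of all genes.

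VD3 plus MM-401 against untreated asks what differs with both agents and does not separate them. More initiation factor genes were called higher here. They were Eif1, Eif1b and Eif6, which act in start codon selection or subunit joining, the helicase genes Eif4a1 and Eif4a3, the eIF3 subunit gene Eif3i, the eIF2B subunit gene Eif2b2 and Eif4enif1, the nuclear import factor of eIF4E. These are 8 of 48 (16.7%), against 13.4% of all 10966 genes. Eif4a2 was the 1 gene called lower, against 6.24% of all. With intervals apart, 4 were higher (4.26% of all genes), namely Eif1, Eif1b, Eif3i and Eif6, and 0 were lower (2.68% of all). By intervals alone these 4 were higher (4.29% of all genes) and 0 lower (2.76% of all). Centred on the median gene, 2 were called higher and 3 lower, and relative to the total count 4 higher, of which 3 are among the 8, and 2 lower. Here too the share of all genes called on these scales was not worked out. The median difference was 0.54 for these genes and 0.27 for all genes, and 33 were above untreated and 15 below. Both comparisons use the same untreated pool, so an error in that pool enters both.

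VD3 plus MM-401 against VD3 addresses what the inhibitor adds to the hormone. Among the initiation factor genes 1, Eif4a1, was called higher, against 4.67% of all 10717 genes, and 0 were lower, against 2.02% of all. Relative to the total count Eif4a1 stood at 0.96 and Eif3j1 was called in its place, at 2.28. The count of Eif3j1 is poorly determined, with an authors' SD of 93.8% of the count with VD3 plus MM-401 and 86.5% with VD3. With intervals apart, 0 were higher (0.830% of all genes) and 0 lower (0.541% of all). The median difference was 0.11 for these genes and 0.02 for all genes, with 30 above VD3 and 18 below. The largest positive differences after Eif4a1 were those of the locus shared by Eif4ebp3 and Ankhd1 (0.77, but -0.11 relative to the total count) and Eif1a (0.62), and the largest negative ones those of Eif3c (-0.78), Eif4e (-0.67) and Eif4b (-0.51).

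**Figure D2:**
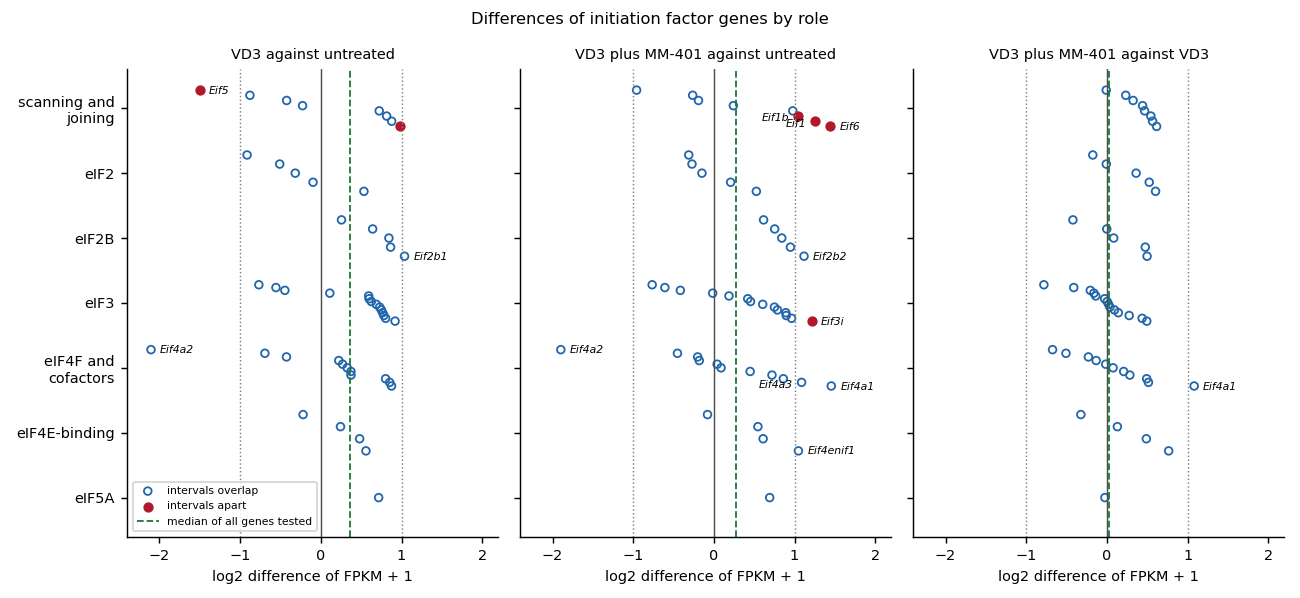
Difference of log2 (FPKM + 1) of each initiation factor gene, by role, in the 3 comparisons. Filled points have confidence intervals that do not overlap, the dotted lines mark 2-fold and the dashed line is the median of all genes tested (0.36, 0.27 and 0.02). Eif4a2 stands lowest against untreated in both treated pools, at -1.90 with VD3 plus MM-401 and -2.10 with VD3.

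The eIF4A helicases unwind the mRNA leader for the scanning ribosome, and the paralogue Eif4a2 was lower in both treated pools than in untreated cells. As deposited, Eif4a2 stood below Eif4a1 in both treated pools and above it in untreated cells, an order that is lost when a copy of Eif4a1 is counted with it. Eif4a2 (chromosome 16, 23107444 to 23114136, plus strand, GENCODE vM21 on GRCm38, the sequence of mm10) was at 99.7 FPKM with VD3 plus MM-401 (interval 24.9 to 175), 86.2 with VD3 (0 to 296) and 374 in untreated cells (0 to 1027). Eif4a1 (chromosome 11, 69666936 to 69672423, minus strand) was at 644 FPKM (11.3 to 1276), 304 (70.5 to 537) and 234 (7.20 to 461) in the same pools. The intervals of each gene overlap between pools. Eif4a2 thus made up 13.4%, 22.1% and 61.5% of the summed FPKM of the 2 genes, a share that no scaling between pools can move. Its difference was -1.90 with VD3 plus MM-401 and -2.10 with VD3, each against untreated. Its estimated counts were 8082, 5980.45 and 26483, and relative to the total count of each pool the differences were -1.94 and -2.37. The locus of Eif4a2 also carries small nucleolar RNA genes, among them Snora81 and Snord2, whose reads may be in its value.

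Eif4a1 has a copy that bears on this order. Of the 1188 windows of 31 bases in the pseudogene Eif4a-ps4, 97.4% also occur in transcripts of Eif4a1 and 0 in those of Eif4a2. Eif4a-ps4 was listed at 625, 704 and 519 FPKM in the VD3 plus MM-401, VD3 and untreated pools, more than Eif4a1 itself in the last 2, so the split of reads between them is uncertain. With the copy added, Eif4a1 stood at 1268, 1008 and 753 FPKM. Its differences were then 0.75 for VD3 plus MM-401 against untreated, in place of 1.46, and 0.33 against VD3, in place of 1.08. Neither would be called. The share of Eif4a2 was then 7.29%, 7.88% and 33.2%, so it was still highest in untreated cells, but Eif4a1 with its copy then exceeded Eif4a2 in all 3 pools. A further relative, Eif4a3, is the helicase of the exon junction complex and was at 601, 493 and 282 FPKM, a difference of 1.09 with VD3 plus MM-401 and 0.80 with VD3 against untreated.

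The bases just upstream of the start sites are shown for the genes on which the calls with VD3 turn, and for Eif4a1 as the paralogue of Eif4a2. They are 120 bases from RefSeq's promoter table (GRCm38.p6), ending at the base before the outermost start that RefSeq or GENCODE annotates, on the gene's strand. Capitals mark CCAAT boxes (CCAAT) and GC boxes (GGGCGG), on either strand.
Eif4a2, chr16:23107324-23107443, plus strand: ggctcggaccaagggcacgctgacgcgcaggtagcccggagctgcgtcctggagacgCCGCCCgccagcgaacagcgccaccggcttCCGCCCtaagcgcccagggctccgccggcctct
Eif4a1, chr11:69672424-69672543, minus strand: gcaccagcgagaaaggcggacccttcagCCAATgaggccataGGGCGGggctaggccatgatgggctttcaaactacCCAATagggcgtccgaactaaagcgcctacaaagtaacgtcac
Eif5, chr12:111537896-111538015, plus strand: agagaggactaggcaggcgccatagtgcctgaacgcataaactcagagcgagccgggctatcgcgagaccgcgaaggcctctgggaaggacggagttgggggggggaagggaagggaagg
Eif2b1, chr5:124579132-124579251, minus strand: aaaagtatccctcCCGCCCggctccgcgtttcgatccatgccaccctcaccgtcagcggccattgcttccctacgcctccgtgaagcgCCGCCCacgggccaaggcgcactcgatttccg
Eif4a1 has 2 CCAAT boxes and 1 GC box in this stretch, Eif4a2 and Eif2b1 have 2 GC boxes each, and Eif5 has neither motif.

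In the 250 bases upstream of the RefSeq start, 39 of the 51 genes had sequence that was searched, on both strands. The E-box CACGTG, the site that MYC with MAX is known to bind, was in 9 of the 39 (23.1%), against 6.86% of 27025 genes with a promoter in the table and 10.5% of the 7187 of them that are protein-coding and were expressed here. The 9 were Eif1b, Eif3f, Eif3k, Eif4a1, Eif4e, Eif4g1, Eif4h, Eif5a and Eif5a2, the last of which is not among the expressed genes. The GC box was in 29 (74.4%), against 35.4% of all and 67.9% of the expressed genes, and the CCAAT box in 12 (30.8%), against 37.5% and 41.5%. Eif5 is among those with a GC box here, though it has none in the shorter stretch shown above. TATAAA was in 3 (7.69%), against 14.3% and 7.08%. The cAMP response element TGACGTCA was in 0 of 39, against 1.77% of all genes and 3.42% of the expressed ones. The direct repeat that the vitamin D receptor is known to bind, searched as AGGTCA, any 3 bases and AGGTCA again, was in 0 of 39, in 2 of the 27025 promoters and in 0 of the expressed ones, so in this strict form it describes almost no promoter.

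Of the factors that set the stringency of start codon choice, Eif5 was lower and Eif1 higher in both treated pools than in untreated cells. eIF5, which stimulates GTP hydrolysis by eIF2 and lowers stringency, and eIF1, which raises it, act against each other. Eif5 (chromosome 12, 111538016 to 111546752, plus strand) was at 121 FPKM with VD3 plus MM-401 (interval 53.0 to 188), 82.4 with VD3 (49.2 to 116) and 235 in untreated cells (135 to 336). The VD3 interval lies wholly under the untreated one, and the difference was -0.96 with VD3 plus MM-401 and -1.502 with VD3, each against untreated. The locus of Eif5 also carries the small nucleolar RNA gene Snora28, whose reads may be in its value. Eif1 was at 189 FPKM (118 to 261), 139 (90.5 to 188) and 78.6 (49.8 to 107), with differences of 1.26 for VD3 plus MM-401 and 0.82 for VD3 against untreated. The interval of Eif1 with VD3 plus MM-401 lies wholly above that of untreated cells, and the one with VD3 overlaps it. The 2 genes differ in GC content, with 41.1% for Eif5 and 50.9% for Eif1. Adjusted for GC content and length, Eif5 stood at -0.38 with VD3 plus MM-401 and -0.69 with VD3, and Eif1 at 0.56 and 0.27. None of these adjusted values reaches 2-fold. The FPKM of Eif5 was 0.637, 0.592 and 2.99 times that of Eif1 in the VD3 plus MM-401, VD3 and untreated pools. Eif1b, a paralogue of Eif1 with no 31-base window in common with it, was at 54.2 FPKM (34.9 to 73.4), 43.0 (28.1 to 58.0) and 25.7 (16.6 to 34.7), so its VD3 plus MM-401 and untreated intervals are apart by a narrow margin.

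Eif6, which keeps the large ribosomal subunit from joining too early, was at 1142 FPKM with VD3 plus MM-401 (622 to 1663), 771 with VD3 (464 to 1078) and 419 in untreated cells (253 to 585). The difference was 1.44 with VD3 plus MM-401, with intervals apart, and 0.88 with VD3, with intervals that overlap. Eif5b, the GTPase that promotes joining, was at 74.3, 63.1 and 84.97 FPKM, with overlapping intervals and differences of -0.19 and -0.42. Of the eIF1A genes, whose product binds beside eIF1, Eif1a was at 112, 72.9 and 135 FPKM and its X-linked relative Eif1ax at 119.7, 86.3 and 101 FPKM, and no pair of intervals was apart. Eif1ad, which shares a domain with eIF1A, was at 100.1, 100.7 and 50.3 FPKM. Its VD3 interval (67.2 to 134) was apart from that of untreated cells (33.9 to 66.8), but its difference of 0.99 fell just short of the call. In VD3 plus MM-401 against VD3, 7 of the 8 scanning and joining genes were higher (52.1% of all genes), with a median of 0.45, against 0.02 for all genes, and none was called. Adjusted for GC content and length, the median of the 8 was 0.19.

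By their medians, the genes of eIF2 and its substitutes lay below untreated cells and those of its exchange factor eIF2B above them. Adjusted for GC content and length, the eIF2 medians were 0.06 with VD3 plus MM-401 and 0.01 with VD3, in place of -0.15 and -0.32. Among the eIF2 genes, 4 of 5 were below untreated with VD3 and 3 of 5 with VD3 plus MM-401, and none was called. Eif2s1, the alpha subunit that stress kinases phosphorylate, was at 89.2, 69.2 and 98.9 FPKM in the VD3 plus MM-401, VD3 and untreated pools. Eif2s2, the beta subunit, was at 130.1, 85.4 and 162 FPKM, a difference of -0.91 with VD3. The gamma subunit gene Eif2s3x differed by -0.32 with VD3. Its Y-linked homologue Eif2s3y, which the rule leaves out, was at 44.8, 27.2 and 83.7 FPKM, higher than Eif2s3x in every pool. Of the 3780 windows of 31 bases in Eif2s3x, 4 occur in Eif2s3y. The VD3 interval of Eif2s3y (12.2 to 42.2) lies wholly under the untreated one (47.2 to 120), as for 4.34% of all genes. Its interval with VD3 plus MM-401 (25.1 to 64.4) overlaps the untreated one. Eif2a and Eif2d, which can deliver the initiator tRNA without eIF2, were at 104, 118 and 126 FPKM and at 142, 143 and 98.2 FPKM. Eif2d was the 1 gene of this group above untreated with VD3.

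All 5 eIF2B genes were above untreated in both treated pools, and 5 with VD3 plus MM-401 and 4 with VD3, without Eif2b3, also lay above the median gene. Their median difference was 0.84 in each, and 1 of 5 was called higher in each, against 13.4% of all genes with VD3 plus MM-401 and 3.54% with VD3. Adjusted for GC content and length, neither is called. Eif2b1, the alpha subunit (chromosome 5, 124570213 to 124579131, minus strand), was at 115 FPKM with VD3 plus MM-401 (65.5 to 164), 154 with VD3 (81.5 to 226) and 74.5 in untreated cells (42.2 to 107), a difference of 1.04 with VD3. Eif2b2, the beta subunit, was at 207 FPKM (116 to 299), 149 (90.9 to 206) and 94.9 (55.6 to 134), a difference of 1.12 with VD3 plus MM-401. The catalytic subunit gene Eif2b5 was at 271, 255 and 139.7 FPKM, Eif2b4 at 221, 221 and 123 and Eif2b3 at 129, 91.3 and 76.3. No interval of an eIF2B gene was apart from untreated. The 5 eIF2B genes summed to 943, 870.2 and 508 FPKM. The 5 genes of eIF2 and its substitutes summed to 475, 421 and 493 FPKM. That sum includes Eif2a and Eif2d, which are not subunits of eIF2, and leaves out Eif2s3y, so it is not the level of eIF2.

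The eIF3 complex, the largest of the factors, binds the small subunit and links it to eIF4G. Of 14 genes, 10 were above untreated with VD3 plus MM-401 (median 0.53) and 11 with VD3 (median 0.66), and 9 and 10 of them lay above the median gene. Eif3i was the 1 gene called, at 463 FPKM with VD3 plus MM-401 (295 to 631), 342 with VD3 (225 to 459) and 199 in untreated cells (132 to 265). Eif3g, at 397, 405 and 213 FPKM, and Eif3k, at 1438, 1188 and 737 FPKM, had differences from 0.69 to 0.96 in both comparisons with untreated. Adjusted for GC content and length, the eIF3 medians were 0.07 with VD3 plus MM-401 and 0.21 with VD3. In the same order, Eif3g then stood at 0.06 and 0.23, and Eif3k at -0.02 and -0.01. In both comparisons 3 eIF3 genes lay below untreated. Eif3a, the largest subunit and the scaffold of the complex, was at 104, 104 and 178 FPKM, a difference of -0.76 with VD3 plus MM-401 and -0.77 with VD3. Its locus also carries the small RNA genes Snora19 and Mir3084-2, whose reads may be in its value. Eif3e summed to 531, 594 and 810.0 FPKM over 2 rows, of which a row with 2106, 2402 and 3280.0 counts gave most of the FPKM. The other row, with 5793, 5506 and 7381 counts, stood at 61.3, 58.2 and 77.9 FPKM. The pseudogenes Eif3s6-ps1 and Eif3s6-ps2 share 50.7% and 34.8% of their 31-base windows with Eif3e. They were listed at 101, 43.7 and 49.4 FPKM and at 216, 353 and 403 FPKM, so the value of Eif3e is uncertain. With both added, its differences against untreated were -0.57 with VD3 plus MM-401 and -0.35 with VD3, in place of -0.61 and -0.45. The last of the 3 genes, Eif3j2, shares 94.0% of its 31-base windows with Eif3j1, so the value of Eif3j2 is uncertain. Eif3c was at 357, 614 and 361 FPKM, the most negative difference of VD3 plus MM-401 against VD3, with overlapping intervals (180 to 534 and 254 to 975).

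**Figure D3:**
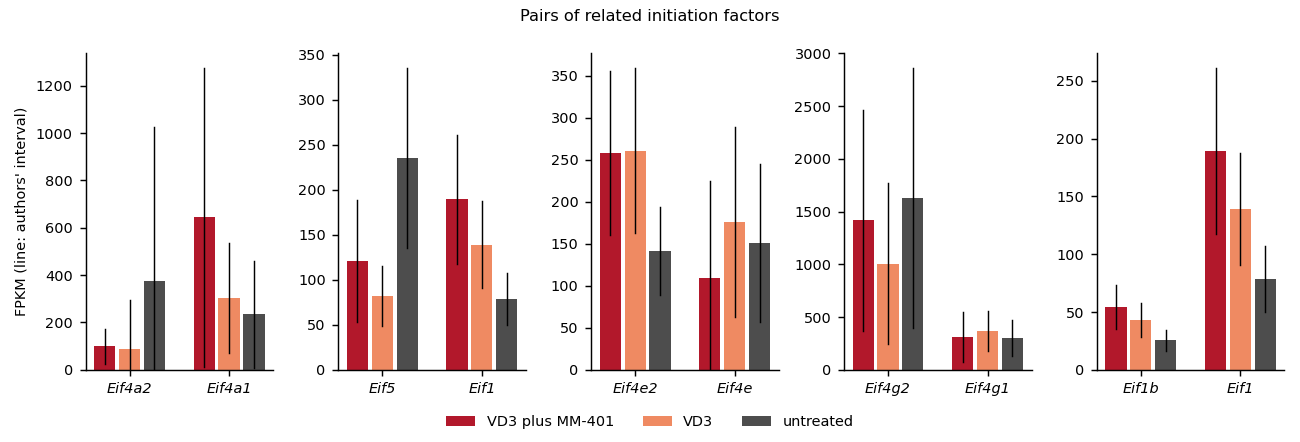
FPKM of pairs of related initiation factor genes in the VD3 plus MM-401, VD3 and untreated pools. Bars start at 0 and lines are the authors' confidence intervals. Eif5 exceeds Eif1 in the untreated pool and in neither treated pool, while Eif1b stays under Eif1 in all 3. Eif4a2 exceeds the plotted Eif4a1 in the untreated pool only, and not once Eif4a-ps4 is added to Eif4a1 (374 against 753 FPKM).

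None of the cap-binding, scaffold or cofactor genes was called. Eif4e, which binds the cap, was at 109.8 FPKM with VD3 plus MM-401 (0 to 225), 176 with VD3 (62.8 to 289) and 151 in untreated cells (56.6 to 245). Its estimated counts were 7639, 7072 and 6947, so VD3 plus MM-401 was lowest by FPKM and highest by count. Eif4e2, a homologue that represses bound mRNAs, was at 258, 261 and 142 FPKM, with differences of 0.86 for VD3 plus MM-401 and 0.88 for VD3 against untreated and with overlapping intervals. The locus of Eif4e3 also holds Foxp1, a transcription factor gene, so its 55.3, 38.4 and 52.0 FPKM cannot be given to either gene. Among the scaffolds, Eif4g1 was at 311, 365 and 303 FPKM and Eif4g3 at 26.8, 25.4 and 19.4 FPKM. Eif4g2 was 4.55, 2.76 and 5.38 times Eif4g1, with VD3 the lowest. The helicase cofactors Eif4b and Eif4h were at 183, 261 and 208 FPKM and at 343, 376 and 208 FPKM.

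The eIF4E-binding proteins hold eIF4E away from eIF4G until mTOR phosphorylates them. By FPKM, Eif4ebp1 was among the 5 highest genes in every pool, at 1123 FPKM with VD3 plus MM-401 (576 to 1670), 1026 with VD3 (630 to 1422) and 735 in untreated cells (458 to 1012). Its FPKM was 10.2, 5.83 and 4.88 times that of Eif4e. The ratio with VD3 plus MM-401 rests on the FPKM of Eif4e, whose difference from untreated was -0.45, but -0.10 relative to the total count. Eif4ebp2 was at 95.7, 119.97 and 101 FPKM. Its counts were 28011, 35029 and 24797, against 39304, 32816 and 23346 for Eif4ebp1, so by count Eif4ebp1 was higher only with VD3 plus MM-401. The count and FPKM of Eif4ebp1 imply a length of 476, 434 and 510 bases, under its annotated 1997 bases. The high FPKM of Eif4ebp1 rests on this short length. The locus of Eif4ebp3 also holds Ankhd1, so its 86.5, 50.4 and 58.9 FPKM cannot be given to either gene. Eif4enif1 was called higher with VD3 plus MM-401, at 502, 357 and 242 FPKM over 2 rows. The interval of each row starts at 0 in every pool, and relative to the total count the difference was 0.29 in place of 1.05.

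Eif5a encodes the hypusine-bearing factor that eases elongation through difficult motifs and also bears an initiation factor name. It was at 1489.8 FPKM with VD3 plus MM-401 (832 to 2148), 1516 with VD3 (908 to 2123) and 922 in untreated cells (575 to 1268), with differences of 0.69 and 0.72 against untreated. Eif5a2, its paralogue, stayed under 5 FPKM, at 1.60 (0.946 to 2.25), 1.07 (0.615 to 1.53) and 4.31 (2.80 to 5.82), with estimated counts of 543, 365 and 1463. Both treated intervals of Eif5a2 lie under that of untreated cells. Eif5a2 made up 0.107%, 0.0709% and 0.465% of the FPKM of the pair. The pseudogene Eif5al3-ps, which shares 38.4% of its 31-base windows with Eif5a, was listed at 441, 526 and 307 FPKM. With this copy added, the differences of Eif5a against untreated were 0.65 with VD3 plus MM-401 and 0.73 with VD3.

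The direction of a gene went with the composition of its transcripts. GC content and length, as medians over the protein-coding transcripts of GENCODE's basic set, were available for 46 of the 48 genes. All 23 genes with at least 50% GC were above untreated with VD3, with a median of 0.75, as were 92.5% of 4741 protein-coding genes of that range in the table, with a median of 0.51. Of the 16 under 45% GC, 3 were above untreated, with a median of -0.48, against 21.9% and a median of -0.62 over 1749 genes. With VD3 plus MM-401 the corresponding counts were 21 of 23 (80.9% of all) and 4 of 16 (33.1% of all). Genes share the pools and are not independent points. Across them, GC content and the difference with VD3 had a Spearman correlation of 0.71 over the 46 and of 0.56 over all 8797 protein-coding genes. With VD3 plus MM-401 it was 0.64 over the 46 and 0.40 over all. In VD3 plus MM-401 against VD3 it was -0.25 and -0.24.

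After a cubic fit of the differences to GC content and length over all protein-coding genes, Eif4a2 (43.2% GC) was still past 2-fold and Eif5 (41.1%) was not. Relative to that fit, Eif4a2 stood at -1.86 with VD3 plus MM-401 and -1.79 with VD3, and Eif5 at -0.38 and -0.69. Eif2b2 (55.1%) stood at 0.48 with VD3 plus MM-401 and Eif2b1 (49.8%) at 0.63 with VD3, the pools in which they were called. Among the other genes called higher with VD3 plus MM-401, Eif4a1 stood at 1.00, Eif4enif1 at 0.90, Eif6 at 0.75, Eif1 at 0.56, Eif4a3 at 0.42, Eif3i at 0.41 and Eif1b at 0.19. The median of the 5 eIF2B genes was 0.30 with VD3 plus MM-401 and 0.24 with VD3, in place of 0.84 in each. The groups of eIF2B and of eIF2 with its substitutes differ in composition, with 46.8% to 56.8% GC for eIF2B and 40.8% to 52.8% for the other. After the fit, 31 of 46 genes were above 0 with VD3 plus MM-401 and 35 with VD3. The fit sets the mean of all genes to 0 but not their median. The share of all genes above 0 and their median after the fit were not worked out. These counts and the adjusted medians therefore have no background.

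**Figure D4:**
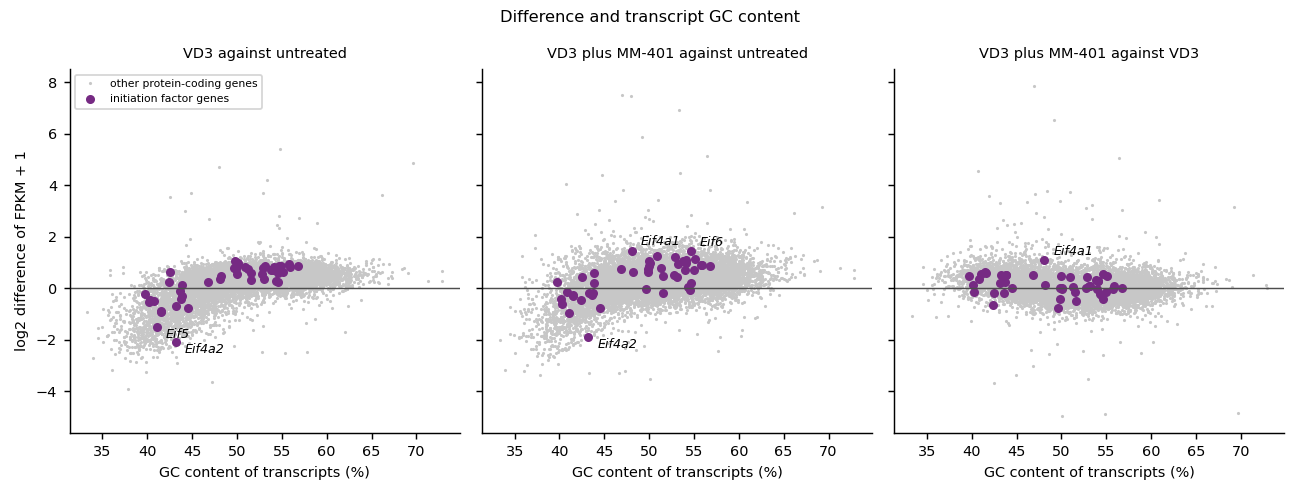
Difference of log2 (FPKM + 1) against the GC content of the transcripts, in percent, for 46 initiation factor genes over all other protein-coding genes tested, in the 3 comparisons. Against untreated, initiation factor genes under 45% GC lie mostly below 0 and those above 50% mostly above it, along the cloud of all genes. Eif4a2 lies below the cloud's centre at its GC content in both.

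FPKM and estimated count disagreed for some genes. Eif3j1, whose row also names AL845457.1, had 171, 197 and 127 FPKM, where the untreated interval spans 0 to 1672. Its counts were 1804, 312 and 528, so it was above untreated with VD3 by FPKM (0.63) and below it relative to the total count (-0.86). The authors' SD of these counts was 93.8%, 86.5% and 79.4% of the count, so every call of Eif3j1 is uncertain. Eif1ax had 24053, 12450 and 14509 counts, a difference of 0.49 with VD3 plus MM-401 against untreated by count and 0.24 by FPKM. The ratio of count to FPKM depends on the transcript length the authors' estimate gives a locus, and the implied length of Eif1ax was 2733, 1958 and 2303 bases. Over all 48 genes the median difference relative to the total count was 0.27 with VD3 plus MM-401 and 0.26 with VD3, against 0.03 and 0.13 for all genes. By FPKM these medians were 0.54 and 0.51, against 0.27 and 0.36 for all genes. The 2 scales thus differ for the whole table against untreated, and not only for single genes.

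Of a list of 39 other translation genes 38 were found. With VD3, 0 of 38 were called higher (3.54% of all genes) and 3 lower, or 7.89% of the list (8.70% of all genes), with a median of 0.27. Ddx3x, a helicase for structured leaders, was at 119, 76.9 and 304 FPKM, a difference of -1.97 with VD3, with intervals apart. Abce1, which splits ribosomes for recycling, was at 85.3, 50.5 and 155 FPKM (-1.60), and the kinase gene Eif2ak2 at 2.82, 2.79 and 6.99 FPKM (-1.08). All 3 were also called relative to the total count, and Ddx3x alone after the adjustment for GC content and length (-1.05). The highest were Eef1b2 (0.95), Eef1g (0.95) and Ppp1r15a (0.85).

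With VD3 plus MM-401, 5 of 38 were called higher than untreated, or 13.2% of the list (13.4% of all genes), and 2 lower, or 5.26% (6.24% of all genes), with a median of 0.19. Those higher were Eef1a1 (1.81), Ppp1r15a (1.504), Eef1d (1.31), Eef1b2 (1.24) and Mcts1 (1.13). Relative to the total count only Eef1b2 of the 5 was called (1.12), with Eef1d at 0.93, Eef1a1 at 0.66, Mcts1 at 0.59 and Ppp1r15a at 0.41. Adjusted for GC content and length, Eef1a1 (1.40), Ppp1r15a (1.12) and Mcts1 (1.10) were called and the other two were not. Only Eef1d had intervals apart, and with VD3 plus MM-401 the intervals of Eef1a1 and Ppp1r15a reach 0. Ppp1r15a, which guides a phosphatase to eIF2 and so reverses the stress kinases, was at 132, 83.8 and 45.9 FPKM. Those lower were Ddx3x (-1.35) and Eif2ak2 (-1.07), which were also called relative to the total count but not after the adjustment, with Abce1 next at -0.85.

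Against VD3, Eef1a1 alone was called with VD3 plus MM-401 (1.09), which is 1 of 37, or 2.70% of the list (4.67% of all genes). It was at 0.31 relative to the total count and 0.94 after the adjustment, so neither keeps the call. The next highest were Mcts1 (0.89, and 0.06 after the adjustment) and the locus of Denr, which Ccdc62 shares (0.85). The lowest were Mtor (-0.88), Eif2ak1 (-0.85) and Mknk1 (-0.47).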

How the data were processed

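Per the submitters' processing notes, TopHat2 2.1.1, SAMtools 1.5 and Cufflinks 2.2.1 were used with build mm10, in an order and with settings that these notes do not give. The authors deposited FPKM with confidence bounds, and estimated counts, which need not be whole, with their variance, for 62490 loci. Each group has 1 pooled column. The untreated and the VD3 plus MM-401 columns were matched to their groups by part of their names, the rest of which is unexplained, and another meaning would change every comparison. The 14 loci without a valid status were left out, none of them an initiation factor gene. Loci with the same name, or with the same single protein-coding gene, were summed. The median authors' SD of the count was 17.8%, 17.1% and 16.9% of the count for these genes (VD3 plus MM-401, VD3, untreated). Differences are log2 ratios of FPKM + 1, which understates those of low genes, for genes of at least 5 FPKM in the higher pool. A count test, which needs a column per library, was not run. Counts relative to the total estimated count of a pool and a cubic fit to GC content and log2 length (GENCODE vM21) were alternatives. The kit is not stated to keep strand, so overlapping genes cannot be told apart. The members, gene lists, call rules and tests were chosen with earlier results of these data known. Named genes were those called in either direction, the 3 with the highest and the 3 with the lowest difference of a comparison, and members under their role. Python 3.11.15, pandas 2.3.3 and numpy 2.4.6 were used, and the steps were tested on simulated data.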

Additional observations from a re-analysis of the deposited data

How the results depend on the processing

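No paired analysis was possible because each group has 1 pooled column, and no library could be left out for the same reason. Of 60 recomputed counts 39 stayed within 1.5 times. Of 27 recomputed medians 26 moved by less than the authors' SD of a single gene's difference (0.35 to 0.36). That margin is wide for a median over the list and does not show that the medians are stable. With VD3 against untreated, the 1 gene higher became 0 by counts relative to the pool's total (relative counts), after centring on the median gene and with intervals apart, and after adjustment for GC content and length the 1 gene called was Eif3j1 (1.32) and not Eif2b1. The 2 lower became 5 by relative counts, 6 after centring, and 1 with intervals apart, after the adjustment, or without genes whose bounds reach 0. The median of 0.51 became 0.14 after centring and 0.18 after the adjustment. With VD3 plus MM-401 against untreated, 8 were higher, and 4 by relative counts (3 of the 8, and Eif3j1), 2 after centring and 4 with intervals apart (all among the 8), and 2 after the adjustment (Eif4a1 of the 8, and Eif1ax). The 1 lower became 2 with no minimum level, 2 by relative counts, 3 after centring, and 0 with intervals apart or without genes whose bounds reach 0. The median of 0.54 became 0.27 after centring and 0.21 after the adjustment. With VD3 plus MM-401 against VD3, the 1 higher became 0 with intervals apart, after the adjustment, or with pseudogene copies added, and by relative counts the 1 gene called was Eif3j1 and not Eif4a1. The 0 lower became 1 after the adjustment, which is Eif4e at -1.37. For relative counts, centring and the adjustment, the share of all genes called was not worked out. Leaving out genes with bounds at 0, leaving out the loci with another protein-coding gene, keeping only the larger locus of a name and adding the copies were chosen after seeing the data. With 1 pool per group, the spread between libraries limits every statement and is not known.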
